A study of Mus musculus with 12 samples.

Results

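The regions described here are stretches of the mouse genome at which H3K27me3 was called in adult enterocytes (AE) and in none of the other intestinal populations of the series. They were chosen by the calls themselves: a 200 bp window was kept when an enriched island covered it in both AE libraries and no island covered it in any library of E12.5 or E14.5 epithelium (named by embryonic day) or of adult intestinal stem cells (ISC), and adjacent windows were merged. This gave 842 AE-only regions, out of 121625 stretches of a single call pattern over the 8 lists. The regions summed to 1.80 Mb, out of 372 Mb called in at least 1 list. Of all windows called anywhere, 0.484% were called in AE only.

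Trimethylation of lysine 27 on histone H3 (H3K27me3) is placed by Polycomb repressive complex 2 and is known for its part in keeping developmental genes silent. It often spreads over broad domains, so it is called as islands, that is, runs of enriched windows joined across short gaps. In the small intestine, Lgr5-positive stem cells at the crypt base renew the epithelium, and their descendants become absorptive enterocytes as they move up the villus.

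ChIP-seq for H3K27me3 was done on 2 libraries per population, stated in the series design to be biological duplicates. All samples carry the strain label mixed C57BL/6 CD1. The AE and ISC cells came from small intestine of adult Lgr5EGFP-Cre-ERT males, labelled P60 (postnatal day 60). The E12.5 and E14.5 cells were EpCAM-positive epithelium of embryonic small intestine, with no genotype or sex given. Stem cells were sorted for high Lgr5-EGFP, whereas the gate given for enterocytes was EpCAM-positive, CD31-, CD45- and DAPI-negative, the same markers as for the embryonic epithelium and with no enterocyte marker among them. Villi were collected apart from crypts, and the protocol does not say which fraction the enterocytes were sorted from, so other epithelial cells could have passed that gate. Whether animals were pooled is not stated. The lists hold no gene names, and no gene table of their build (mm9) was used, so cell identity was not checked on marker genes, and regions are given by position alone. The labels list 1 input library for each population, and each list gives control reads beside the ChIP reads of every island.

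The lists differ in extent, which bears on every region below. ISC replicate 1 covered 241 Mb, while the other 7 lists covered between 60.8 and 109 Mb, with AE replicate 1 at 80.0 Mb and AE replicate 2 at 91.0 Mb. The ChIP reads inside islands numbered from 1171968 to 6627853 per library. The lists hold reads inside islands only, so a window outside them was not called, which does not show that the mark was absent. No count test could be run across libraries, and since the calls chose the regions, values below are descriptions without a test.

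Little of what the enterocyte lists shared was theirs alone. Both AE lists covered 44.0 Mb together, and 4.09% of this was called in no other population. In ISC this share came to 13.5%, in E14.5 to 9.61% and in E12.5 to 6.4%, so AE had the lowest of the 4. These shares are not like for like. AE, E14.5 and E12.5 windows had to lie outside the 241 Mb list of ISC replicate 1, and ISC windows did not. With that list set aside the AE-only length was 8.60 Mb, and the part of list extent in the ranking was not tested. By the same rule 527 regions (1.49 Mb, 0.401% of all called windows) were E12.5-only, 2386 (5.49 Mb, 1.48%) were E14.5-only and 2247 (6.70 Mb, 1.80%) were ISC-only. The length shared by both AE lists was for the most part also called in ISC replicate 1, the list of 241 Mb. That list covered 92.8% of it, and the 2 ISC lists together 94.0%. The share covered by ISC replicate 2 by itself was not worked out, so these values do not speak for both stem cell libraries. ISC replicate 1 was the only other list over 15.5% of the shared length, and ISC replicate 2 over 0.338%. A further 0.824 Mb was called in embryonic epithelium but in neither ISC library, and 11 Mb was called in all 6 other lists.

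The calls just outside the rule were nearly all shared with a single stem cell library. Windows called in both AE lists and in exactly 1 other list came to 7.36 Mb, and 6.80 Mb of these, in 2321 regions, had ISC replicate 1 as the other list. There the median fold over control, the authors' ChIP-to-control ratio with library sizes taken into account, was 1.40 in AE replicate 1, 1.53 in AE replicate 2 and 1.70 in ISC replicate 1. For the AE-only regions the medians were 1.45 and 1.54 in the 2 AE lists. Folds are listed per island, so a fold given for a region is that of the whole island that holds it. If the list of ISC replicate 1 is set aside, the AE-only length is 8.60 Mb in 2732 regions. The AE-only set therefore rests on this one library's list. It rests on both AE lists as well: asking for a call in AE replicate 2 alone gave 14.9 Mb in 4855 regions, and in AE replicate 1 alone 13.1 Mb in 3709.

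Most length private to enterocytes was called in 1 of the 2 AE libraries only. Length called in AE replicate 1 and in no other list at all came to 11.3 Mb, and in AE replicate 2 to 13.1 Mb, beside the 1.80 Mb called in both. The shared part was thus 6.87% of all length private to AE libraries, compared with 3.47% for E12.5, 16.3% for E14.5 and 5.73% for ISC. The islands were counted in the same way. Of the 1504 islands of AE replicate 1 that overlapped no island of another population, 272 (18.1%) overlapped an island of AE replicate 2. Of its remaining 6728 islands, 70.1% did. In AE replicate 2 the shares were 12.3% of 2424 such islands and 57.4% of the other 9421. In AE replicate 1 private islands had a median length of 5.4 kb where they overlapped an island of AE replicate 2 and 5.2 kb where they did not. For the remaining islands the medians were 9.4 and 5.6 kb. In AE replicate 2 they were 4.0 and 3.6 kb for private islands, and 7.0 and 5.2 kb for the others. The part of length in these shares was not tested.

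The AE-only regions were short. Their median length was 1.6 kb, with quartiles of 0.8 and 3.2 kb and a maximum of 13.4 kb. A single window made up 100 regions, and 589 were at least 1 kb long. Most of the length lay in the middle range, with 291 regions of 2 to 4.8 kb adding up to 51.7% of it, while only 4 regions reached 10 kb. The ISC-only regions had a median of 2.2 kb and the E14.5-only regions one of 1.6 kb.

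Regions fell into 3 kinds by the AE islands that held them. In 256 regions (30.4%), both holding islands overlapped no island of any other population; such regions are called free-standing. In 506 regions (60.1%), both holding islands ran into length that was also called elsewhere. Such a region was the part of a shared domain that was called in the AE lists only. In the remaining 80 the island was free of other calls in 1 replicate only. Among all AE-only regions, 94 (11.2%) had islands of other populations directly at both ends. The calls show where islands stop, and whether the mark itself reached further in enterocytes was not tested. Free-standing regions were the longer kind, with a median of 3.2 kb compared with 1.0 kb for the parts of shared domains, and made up 48.5% of the AE-only length (0.874 of 1.80 Mb). Among single-window regions 2 of 100 were free-standing, and among regions of 2 to 4.8 kb 165 of 291 were. By number of regions, 17.4% of the E14.5-only, 19.8% of the ISC-only and 48.6% of the E12.5-only regions were free-standing.

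**Figure D1:**
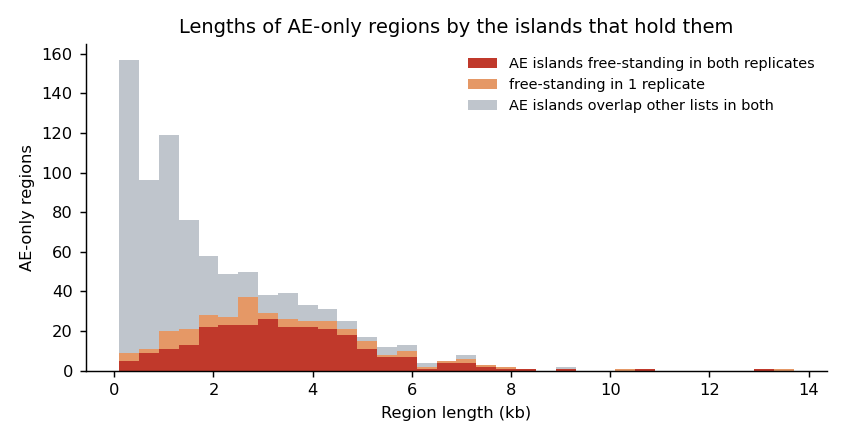
Number of AE-only regions (vertical axis) by length in kb (horizontal axis, bins of 2 windows), stacked by whether the AE islands that hold them are free of other populations' calls in both replicates (red), in 1 replicate (orange) or in none (grey). The 506 grey regions pile up at short lengths (median 1.0 kb), and the 256 red ones centre on 3.2 kb.

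The parts of shared domains were small slices of large islands. Their holding islands had median lengths of 11.6 kb in AE replicate 1 and 8.0 kb in AE replicate 2, of which the region took a median of 7.66% and 10.0%. For free-standing regions the holding islands were 5.6 and 4.2 kb long, and the region took a median of 58.2% of the first and 100% of the second. In 130 of the 256 free-standing regions, the region was the whole island of AE replicate 2, and in 25 it was the whole island of AE replicate 1. In 5 of the 842 regions the islands of both replicates began and ended exactly at the region.

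What ended a region can be read from the window beyond it. Of all 1684 region ends, 630 (37.4%) lay where the island of AE replicate 2 stopped and that of replicate 1 went on, 355 (21.1%) where only the island of replicate 1 stopped, and 105 (6.24%) where both stopped in the same window. At another 590 ends (35.0%) both AE islands went on and an island of another population began. The edges of AE-only regions were therefore set more often by a difference between the 2 AE lists than by the border of a mark called in stem cells or embryos.

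The longest regions show how the lists lie. Folds are given with 95% exact (Clopper-Pearson) intervals, which cover counting error of the island's ChIP and control reads only; they take no account of the islands having been picked by a caller, and both AE libraries use the same control.

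The longest AE-only region was 13.4 kb on chromosome 19 (58741201 to 58754600). In AE replicate 1 it was part of a 55.0 kb island with 2301 ChIP and 752 control reads and a fold of 2.10 (1.93 to 2.28). In AE replicate 2 the island was the region itself, with 256 ChIP and 221 control reads and a fold of 1.34 (1.11 to 1.61). Stem cell marking came close in one library and not in the other: the nearest island of ISC replicate 1 lay 1.2 kb away and that of ISC replicate 2 113.2 kb away. Embryonic islands were at least 66.4 kb away.

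The second, 13.2 kb on chromosome 3 (98062601 to 98075800), was free-standing. Its islands were 21.4 kb long with 719 ChIP and 340 control reads, fold 1.45 (1.27 to 1.65), and 15.8 kb long with 301 and 273 reads, fold 1.27 (1.08 to 1.5). The nearest ISC island, in replicate 1, was 11.4 kb off. Both lists held further enterocyte islands on the same side as this ISC island, within 60 kb.

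Chromosome 11 held 4 of the 10 longest regions. The first (58406801 to 58417400, 10.6 kb) was free-standing within islands of 14 kb in both AE lists, with folds of 1.30 (1.11 to 1.52) and 1.22 (1.02 to 1.47), and 26.4 kb from the nearest ISC island. A second (85071601 to 85080600, 9.0 kb) lay 84.2 kb from any ISC island and 72.4 kb from any island of another population, with folds of 1.47 (1.21 to 1.78) and 1.38 (1.15 to 1.66). It is the most isolated of the 10. The remaining pair (62927201 to 62935600, 8.4 kb, and 62817201 to 62825000, 7.8 kb) were 2.0 and 7.8 kb from islands of ISC replicate 1.

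On chromosome 14 (66245201 to 66255600, 10.4 kb) the islands were of unequal size, 39.0 and 10.8 kb, with folds of 1.64 (1.5 to 1.80) and 1.32 (1.09 to 1.60). On chromosome 10 (61421201 to 61430200, 9.0 kb) every other population was marked nearby: an E14.5 island began directly at its end, and islands of E12.5, E14.5 and ISC libraries lay within 10 kb of it. The last of the 10 were on chromosome 15 (58599001 to 58606800, 7.8 kb) and chromosome 2 (148720401 to 148728000, 7.6 kb), both free-standing and 4.6 and 5.2 kb from an ISC replicate 1 island. For the chromosome 2 region the fold interval of AE replicate 2, 0.998 to 1.58, reached 1.

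Over the 10 longest regions the folds ran from 1.30 to 2.10 in AE replicate 1 and from 1.22 to 1.45 in AE replicate 2. ISC replicate 1 had an island 1.2 to 84.2 kb away, and ISC replicate 2 one 2.4 to 297.4 kb away. The lower of the 2 folds was under 1.5 in all 10, as it was in 553 of the 842 AE-only regions (65.7%). The longest region, at 2.10 in AE replicate 1, was above the upper quartile of that list's folds over the AE-only regions (1.72).

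**Figure D2:**
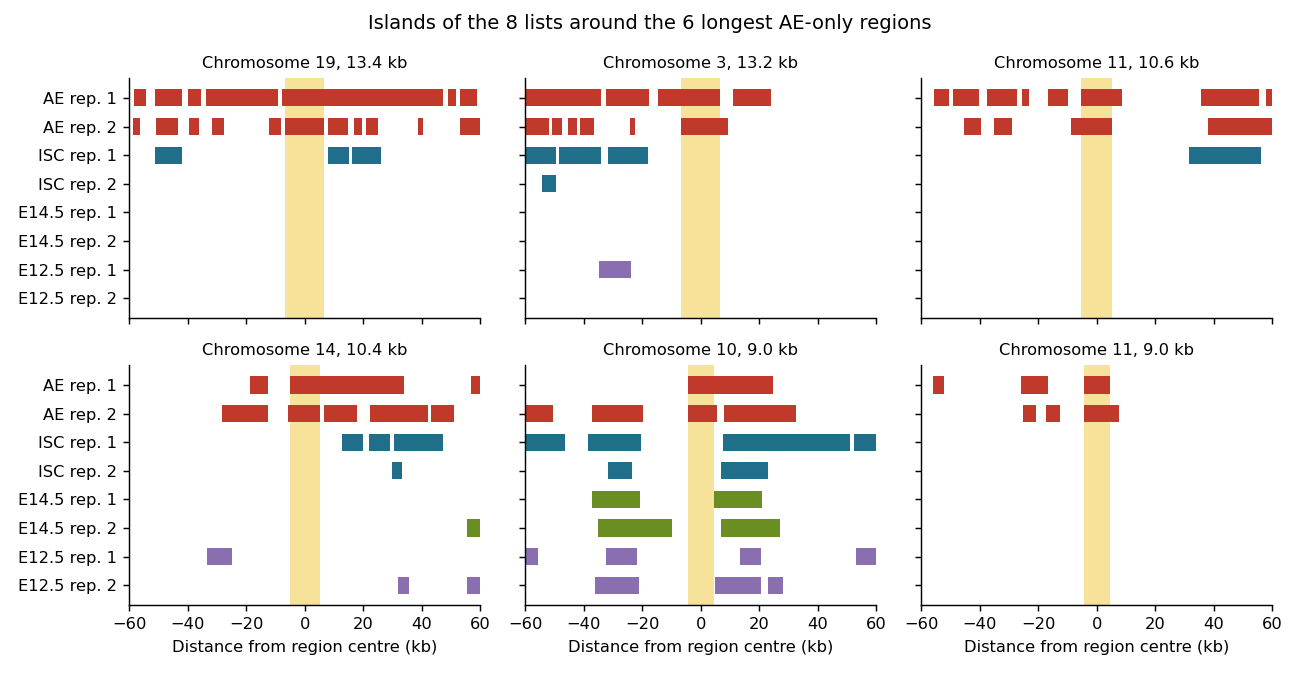
Islands of the 8 lists (rows, coloured by population) around the 6 longest AE-only regions (yellow, lengths of 9.0 to 13.4 kb), with distance from the region's centre in kb on the horizontal axis. Enterocyte islands line both sides of most regions, stem cell islands of replicate 1 lie within 60 kb in 5 of the 6 panels, and the panel of the 9.0 kb region on chromosome 11 holds enterocyte islands only.

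A part of the regions lay close together. The median gap between neighbouring regions was 852 kb, but 104 of the 821 gaps were 10 kb or less and 213 were 50 kb or less. Joining regions across gaps of up to 50 kb left 629 groups, of which 112 held 2 or more regions. These 112 clusters took in 325 regions, or 38.6% of all. The same share was 19.2% for E12.5-only, 55.3% for E14.5-only and 49.8% for ISC-only regions, sets that differ in size, and the part of their size in these shares was not tested. The 842 regions lay in 776 islands of AE replicate 1 and 796 of AE replicate 2. Of these islands, 61 and 43 held 2 or more regions, and none held more than 4. The median gap was longer than any of these islands, so most neighbours could not have shared one. These counts therefore do not describe the close neighbours.

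One cluster stood apart. On chromosome 16, 19 AE-only regions lay within 218 kb (20974801 to 21193000) and summed to 57.8 kb, 13 of them free-standing. Over this span AE replicate 1 covered 64.7% in 19 islands and AE replicate 2 38.0% in 18 islands. The ISC libraries covered 10.4% and 5.77%, the E12.5 libraries 4.03% and 0%, and both E14.5 libraries 0%. Enterocyte islands followed one another across the whole span, while stem cells had 3 islands in replicate 1 and 1 in replicate 2. The span was chosen for its AE-only length, which by itself favours coverage in the AE lists over that in the others.

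The folds in this cluster were above the median of the AE-only regions in most of its islands. They ran from 1.29 to 3.11 in the AE replicate 1 islands that held regions and from 1.36 to 3.06 in those of AE replicate 2. A pair of neighbouring regions towards its lower end (21042801 to 21045400 and 21047001 to 21051000) shared an AE replicate 1 island of 9.6 kb with 440 ChIP and 108 control reads, fold 2.79 (2.26 to 3.48). In AE replicate 2 they lay in separate islands with folds of 2.41 (1.68 to 3.5) and 2.15 (1.47 to 3.18). Near its upper end a 2.0 kb region (21184801 to 21186800) had folds of 1.82 (1.33 to 2.51) and 3.06 (1.80 to 5.40), the latter on 53 ChIP and 20 control reads. Intervals of the 2 replicates overlapped for each of these regions.

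The next cluster was on chromosome 19 (58689601 to 58844200), where 8 regions, the longest of all among them, summed to 36.2 kb over 155 kb. AE replicate 1 covered 73.5% of the span and AE replicate 2 39.1%, ISC replicate 1 16.8%, and ISC replicate 2 and the 4 embryonic libraries 0%. On chromosome 11, 5 regions summing to 25 kb (62715801 to 62825000) lay in a span that ISC replicate 1 covered to 47.4%, beside 69.6% and 64.8% in the AE libraries; none of these 5 was free-standing. On chromosome 14, 4 regions (66231601 to 66280200) summed to 23.6 kb, with 29.6% of the span covered in ISC replicate 1 and 0% in ISC replicate 2. In these 3 spans islands of ISC replicate 1 lay among the enterocyte islands, and the AE libraries covered more of the span, which the choice of regions favours.

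The fifth cluster differed. On chromosome 11 (58366801 to 58417400) 3 free-standing regions summed to 21.6 kb within 50.6 kb, and none of the 6 other libraries had an island anywhere in this span. AE replicate 1 covered 70.0% of it and AE replicate 2 50.6%. Here too the choice of regions favours coverage in the AE lists. Its folds were low, from 1.30 to 1.8 and from 1.22 to 1.55.

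**Figure D3:**
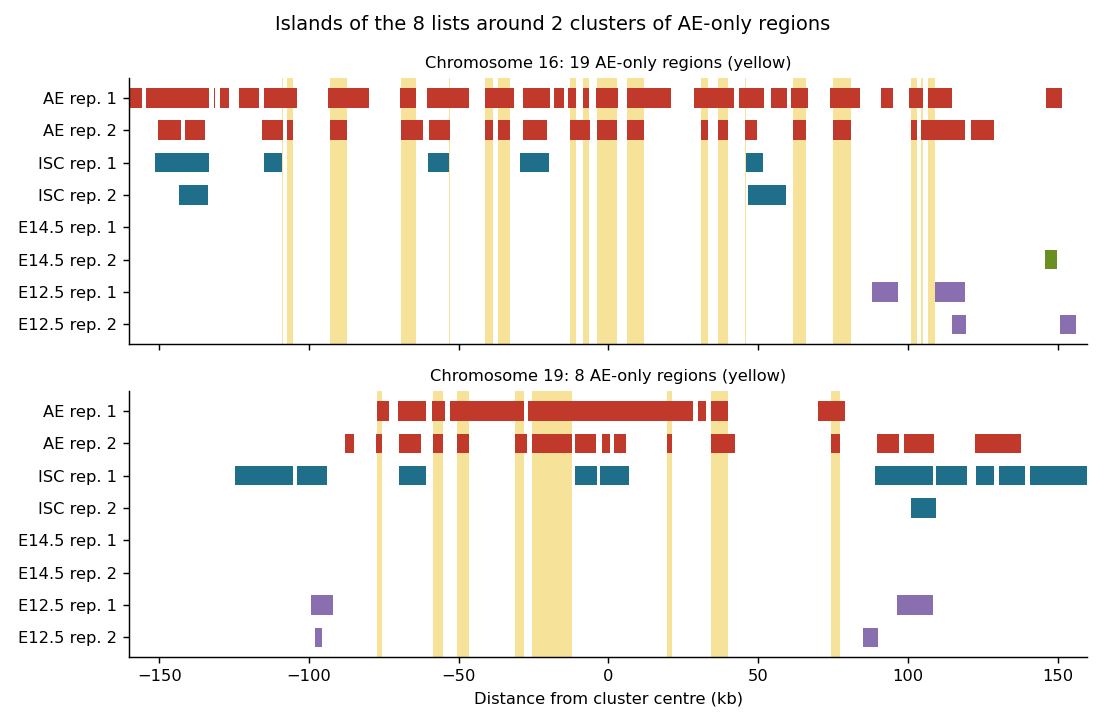
Islands of the 8 lists (rows, coloured by population) around the clusters on chromosome 16 (19 AE-only regions, yellow) and chromosome 19 (8 regions), with distance from the cluster's centre in kb on the horizontal axis. AE islands fill 64.7% and 38.0% of the chromosome 16 span, and ISC islands 10.4% and 5.77%.

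Chromosome 16 also had the highest share of AE-only length. AE-only length was 11.6% of the length shared by both AE lists on chromosome 16 and 2.38% to 6.74% on the other autosomes. The large cluster made up 54.7% of the AE-only length of chromosome 16, and without it the share was 5.71%. Chromosome X held 5 regions and chromosome Y 1, where ISC replicate 1 listed no island at all.

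Many of the regions bordered directly on a stem cell island. The rule ends a region where an ISC island begins, so touching one is in part built in. Of the 842 regions, 428 (50.8%) touched an ISC island, and 645 (76.6%) lay within 10 kb of one, while 66 (7.84%) lay over 100 kb from any. The median distance was therefore 0 kb, with an upper quartile of 8.95 kb. An ISC island bordered 359 regions on one side and 69 on both, so that the latter filled gaps between stem cell islands. For the converse set, 42.5% of the ISC-only regions touched an AE island and 70.0% lay within 10 kb of one.

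The closeness to stem cell islands rested on ISC replicate 1. Its islands touched 399 regions, and those of ISC replicate 2 touched 49. Median distances were 0.6 kb to ISC replicate 1 and 33.7 kb to ISC replicate 2. The embryonic libraries were farther off, with medians of 90.2 and 44.4 kb for E12.5 and 83.1 and 56.7 kb for E14.5, and they touched 15, 29, 33 and 44 regions in that order. ISC replicate 1 was the nearest list, alone or tied, for 613 regions (72.8%). The lists also differ in covered length and in number of islands. ISC replicate 1 covered 241 Mb in 17407 islands and ISC replicate 2 60.8 Mb in 6668. The E12.5 lists covered 62.5 and 76 Mb in 6171 and 12649 islands, and the E14.5 lists 75.9 and 109 Mb in 8185 and 9940. The part of covered length and of island number in these distances was not tested.

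**Figure D4:**
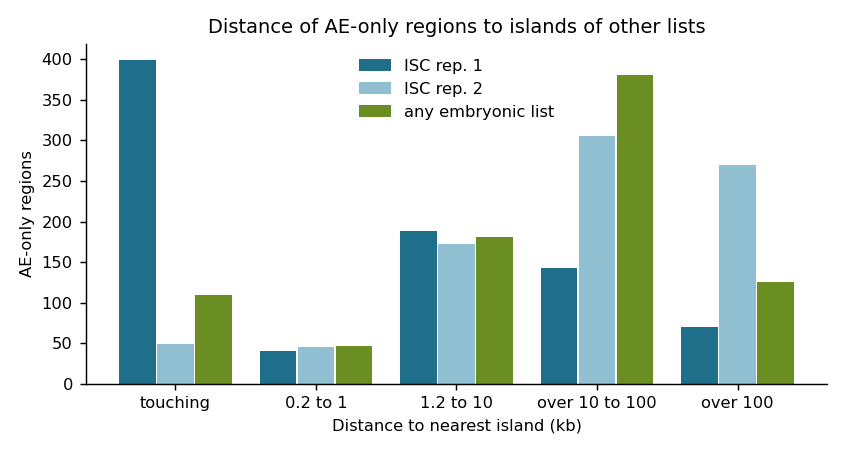
Number of AE-only regions (vertical axis) by distance in kb to the nearest island of ISC replicate 1, ISC replicate 2 or any of the 4 embryonic lists (horizontal axis, bands). For ISC replicate 1 the touching band is the fullest with 399 regions, whereas for ISC replicate 2 306 regions lie over 10 and up to 100 kb away; 1 region on chromosome Y has no distance to ISC replicate 1.

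The AE islands of free-standing regions were required to overlap no island of another population, so some distance to stem cell islands is built into this class. Their median distance to an ISC island was 17.7 kb, with quartiles of 7.95 and 97.6 kb, and 64 of the 256 lay over 100 kb away. To the nearest embryonic island the median was 45.9 kb. Across the 842 regions, which share libraries and islands and are not independent, length and distance to ISC islands had a Spearman's rho of 0.499 and a Pearson's r of 0.0537. The rule ends a region where another list's island begins, so length and distance are not separate measures.

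Among regions of at least 1 kb, the farthest from stem cell marking was a 1.8 kb free-standing region on chromosome 15 (46431001 to 46432800). The nearest ISC island was 1809.8 kb away, and the embryonic libraries were no closer, at 1810.0 to 5373.2 kb. Its islands had 257 ChIP and 43 control reads in AE replicate 1, fold 4.10 (2.96 to 5.80), and 60 and 20 reads in AE replicate 2, fold 3.46 (2.06 to 6.06). It thus combined high fold and isolation, but with few control reads. Control reads were 5.12 and 11.1 per kb, the list medians being 16.3 and 18.6. ChIP reads were 30.6 per kb in AE replicate 1, below the list median of 34.8, and 33.3 in AE replicate 2, above its median of 24.4.

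The other far regions had lower folds. On chromosome 12 (116014601 to 116016600), 1291.6 kb from an ISC island, the folds were 1.18 and 1.60, and an E14.5 replicate 1 island lay 1.0 kb away. On chromosome 9 (7626401 to 7629400), 1265.8 kb away, they were 1.33 and 1.47, with E14.5 replicate 2 at 2.8 kb. On chromosome 4 (19645801 to 19648000), 1054.0 kb away, they were 1.61 and 1.97, and on chromosome 14 (14733001 to 14734400), 900.6 kb away, 2.17 and 2.76. The regions on chromosomes 12 and 9 were therefore far from stem cell marking and close to embryonic marking.

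Enrichment of the islands that held AE-only regions was modest and, with all islands pooled, like that of other enterocyte islands. Reads are listed for whole islands, so the enrichment of the regions themselves was not measured. In the 506 parts of shared domains the region was a median of 7.66% and 10.0% of its islands, whose folds mostly describe length outside the region. Median ChIP and control reads of the holding islands were 309 and 141 in AE replicate 1, and 127 and 94.5 in AE replicate 2. The folds ran from 1.1 to 6.44 with quartiles of 1.30 and 1.72 in AE replicate 1, and from 1.09 to 6.42 with quartiles of 1.39 and 1.77 in AE replicate 2. Counting each island once, islands with a region had a median fold of 1.44 in AE replicate 1, as did those without, and 1.54 against 1.52 in AE replicate 2. Pooled in this way, islands with a region did not stand out in fold in either list. Among islands that overlapped no other population, the median folds with and without a region were 1.51 and 1.49 in AE replicate 1. In AE replicate 2 they were 1.64 and 1.52.

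The islands of free-standing regions had median folds of 1.52 and 1.63, and the islands of parts of shared domains 1.40 and 1.5. A fold of at least 1.5 in both replicates was found for 289 regions (34.3%), 115 of them free-standing. A false discovery rate (FDR) of 1e-10 or less was listed in AE replicate 1 for 353 regions, in AE replicate 2 for 167 and in both for 109 (12.9%). The free-standing regions lay in shorter islands with fewer reads, and only 13 of the 256 reached that FDR in both lists.

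Folds of the replicates went together across regions (Spearman's rho 0.550, Pearson's r 0.678, n = 842), but they are not independent, since both divide by the same control reads. Among intervals listed identically in both AE lists, the control count was the same in 41 of 41. Fold and control reads per kb had a rho of -0.691 in AE replicate 1 and -0.504 in AE replicate 2, while fold and ChIP reads per kb had a rho of 0.267 and 0.2. Fold contains the control reads, so part of this relation is arithmetic. In the 62 regions with a fold of 2 or more in both lists, the holding islands had a median of 10.1 and 11.5 control reads per kb, compared with 17.2 and 17.9 in the 553 regions below 1.5. Their ChIP reads per kb differed less, at 38.3 against 33.9 and 22.7 against 22.3. High folds in this set thus went with few control reads more than with many ChIP reads, and the part of control density in them was not tested.

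**Figure D5:**
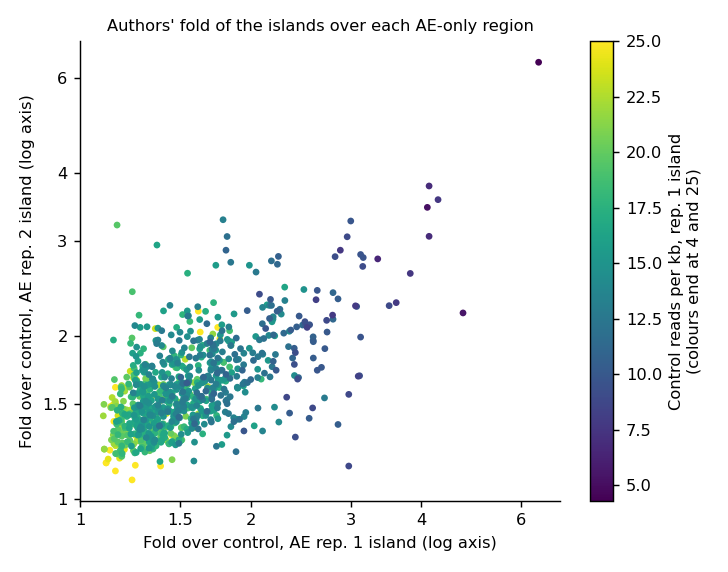
Authors' fold over control of the AE replicate 1 island (horizontal, log axis) and the AE replicate 2 island (vertical, log axis) over each of the 842 AE-only regions, coloured by control reads per kb of the replicate 1 island. Most points lie between 1.1 and 2 on both axes; the points with folds above 3 in AE replicate 1 are dark, that is, low in control reads.

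The regions with the highest folds had few control reads. Among regions of at least 1 kb, the first was 4.4 kb on chromosome 1 (175752801 to 175757200), free-standing, with 573 ChIP and 61 control reads in AE replicate 1, fold 6.44 (4.94 to 8.53), and 89 and 16 reads in AE replicate 2, fold 6.42 (3.74 to 11.7). Control reads there were 4.30 and 3.64 per kb, the list medians being 16.3 and 18.6. ChIP reads, at 40.4 and 20.2 per kb, were near the list medians of 34.8 and 24.4. An island of ISC replicate 1 lay 4.6 kb away.

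On chromosome 3, 2 regions (159127401 to 159130200 and 159135601 to 159139000) shared a 15.0 kb island of AE replicate 1 with fold 4.13 (3.34 to 5.13), and had folds of 3.06 (1.87 to 5.18) and 3.79 (2.30 to 6.51) in AE replicate 2. Another on that chromosome (126606201 to 126607200, 1.0 kb) touched an ISC replicate 2 island. Its AE islands had folds of 4.28 (3.69 to 4.99) and 3.58 (2.49 to 5.24). These islands were 26.4 and 5.2 kb long and overlapped other lists, and the region made up 3.79% and 19.2% of them. The chromosome 15 region farthest from stem cell islands was the fourth by fold.

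The remaining 3 were on chromosome 19 (52352401 to 52356200, folds 2.96 and 3.05, 581.4 kb from an ISC island), chromosome 15 (101483401 to 101485200, folds 2.88 and 2.88) and chromosome 11 (121786401 to 121788400, folds 3.12 and 2.83). The chromosome 11 region was 4.27% of its 46.8 kb island in AE replicate 1 and 90.9% of its 2.2 kb island in AE replicate 2. In all 8 the control density of the AE replicate 1 island was between 4.30 and 9.70 reads per kb, below the list median, and that of the AE replicate 2 island between 3.64 and 12.2. None of these 8 was among the 10 longest regions; they measured 1.0 to 4.4 kb. Length and the lower of a region's 2 folds had a rho of 0.0459 across the 842 regions.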

How the data were processed

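H3K27me3 ChIP-seq islands of 8 libraries (2 each of E12.5, E14.5, ISC and AE) were analysed. Build mm9 and the tools SICER 1.1, Bowtie 1.1.2, SAMtools 1.2 and bcl2fastq 1.8.4 are named in the submitters' processing notes; caller settings are not given in the sources used here. The deposited lists have no header: island ChIP and control read counts, the authors' p-value and FDR, and the authors' fold (a ratio scaled by library size) were identified from SICER's column order and the values, and every listed FDR was below 0.01. Islands were called per library. Lists were painted on their 200 bp grid with Python 3.11.15, numpy 2.4.6, pandas 2.3.3 and scipy 1.17.1, tested on simulated islands; coordinates are 1-based. A distance of 0 means that an island begins in the adjacent window. Regions named are the 10 longest, the 8 with the highest lower fold and the 5 farthest from ISC islands (both of at least 1 kb), and the 5 clusters of greatest summed length; those pointed out within the chromosome 16 cluster were chosen after their values were seen. Regions and settings were chosen with earlier results of these data known. Genes, sequences and promoters were not analysed here, since the tables at hand are of another build.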

Additional observations from a re-analysis of the deposited data

How the results depend on the processing

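The AE-only set depended strongly on how lists were thresholded and on single libraries. With an FDR of 1e-10 or less in all lists the length was 0.575 Mb in 171 regions, and 10.5% of the original length was kept. With a fold of 1.5 or more in all lists it was 1.18 Mb in 421 regions, at a median distance to ISC islands of 9.2 kb, and with that fold asked of AE islands alone 0.635 Mb in 289 regions at 1.8 kb. At equal covered length it was 3.68 Mb at a median distance of 11.1 kb. Widening the islands of the other lists by 1 kb left 503 regions at 4.4 kb, and by 5 kb 286 regions, 0.881 Mb, at 16.1 kb. Distances were taken to the islands before widening, so the regions left had to lie at least 1 or 5 kb away. Regions of at least 1 kb lay at a median of 2 kb. With a library left out, the length ranged from 1.86 to 14.9 Mb, the regions from 862 to 4855 and the median distance from 0 to 7.2 kb. Without ISC replicate 1 it was 8.60 Mb in 2732 regions, at 7.2 kb; where a single AE list decided, it was 14.9 Mb in 4855 regions without AE replicate 1 and 13.1 Mb in 3709 without AE replicate 2. Without any 1 of the other 5 libraries the length stayed at or below 2.00 Mb. Leaving out AE islands with over 2 times the median control density gave 1.79 Mb in 830 regions, and leaving out those below 0.5 times it, chosen after seeing the data, 1.73 Mb in 815. No paired analysis was possible because the results come from calls and not from a test. Reads outside islands are not listed, so lower levels of the mark in other populations could not be measured.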
